A study of Mus musculus with 6 samples.

Results

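The leptin receptor and gp130 signalling genes described here are 10 genes taken by name: the receptor genes Lepr, Il6st, Lifr and Osmr, the kinase genes Jak1 and Jak2, the transcription factor gene Stat3, the feedback inhibitor gene Socs3, and the ligand genes Lif and Il6. All 10 were among the 19938 genes that the arrays measured. Each was read from the probe set that named that gene alone and was brightest on average over the 6 arrays. A gene counted as dim when its mean log2 intensity was at or below 6.00, the mark under which the lowest 33.3% of genes lay. Of the 10 genes, 9 were above it and were tested together with 13292 genes in all, while Il6 was dim.

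The samples were CXCL12-abundant reticular (CAR) cells, stromal cells of the bone marrow that make large amounts of the chemokine CXCL12. One group was CAR cells targeted by Dmp1-Cre (3 arrays) and the other CAR cells not targeted by it (3 arrays). Both came from femur and tibia of C57BL/6 mice aged 7 weeks with the genotype Dmp1-Cre Cxcl12-gfp/+, so the Cre transgene and the gfp allele were shared by both groups. The series text names 3 mice as the source of both populations and counts the cells from a single animal as a sample. Dmp1-Cre takes its expression from control elements of Dmp1, which encodes a mineralised-matrix protein typical of osteocytes, and the labels do not state how targeting was read in the sort. The comparison addresses how the targeted subset of CAR cells differs from the rest.

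As background, leptin is a hormone of fat cells, and its receptor LEPR is a common marker of CAR cells. LEPR is built like gp130, the protein of Il6st, which is the signalling chain shared by the receptors of IL-6, LIF and oncostatin M. LIF binds the LIF receptor together with gp130, oncostatin M binds its own receptor chain together with gp130, and IL-6 first binds the IL-6 receptor chain. Bound receptors activate the kinases JAK1 and JAK2, which phosphorylate STAT3. STAT3 then switches on target genes, among them Socs3, whose protein shuts the receptor complex down.

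On these arrays Lepr and Jak2 were lower in targeted cells by about the same amount on the log2 scale, and Lifr was higher, while Il6st, Osmr, Jak1 and Stat3 varied more between arrays of one group than between the groups. None of the 9 tested genes passed the test over all genes (limma, Benjamini-Hochberg adjusted p from 0.947 to 0.9998). Over all 13292 genes 0 passed at an adjusted p of 0.05, a share of 0%, and 634 genes (4.77%) had an unadjusted p under 0.05. That last count was 1116 without targeted replicate 1, 408 without non-targeted replicate 3 and 2060 with array weights. Among the 9 tested genes 3 had an unadjusted p under 0.05, namely Lepr, Jak2 and Lifr. The differences given below are therefore values with their intervals, not calls.

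The arrays' median intensities ran from 79.4 to 87.5, and pairs of arrays correlated across genes at 0.91 to 0.96. As a check on the sort, Dmp1 read 11.28, 10.03 and 9.89 in targeted cells, against 7.51, 6.93 and 6.91 in non-targeted cells. Targeted replicate 1 stood apart in neutrophil and osteoblast genes. The summed linear intensity of 9 neutrophil genes ran from 915 to 11130 on targeted and from 8733 to 13682 on non-targeted arrays, the lowest on targeted replicate 1, and 7 of the 8 tested were lower in targeted cells. For 7 osteoblast genes the sum was 17789 to 27954 against 13009 to 15852, with all 7 higher and the highest sum on the same array. Non-targeted CAR cells read these genes too, at mean log2 intensities from 6.34 for Postn to 12.79 for Ibsp. Which cells made this RNA was not tested. Of 6 endothelial genes 4 were dim and 2 (Cdh5, Stab2) were tested, with sums of 310 to 387 on targeted and 323 to 395 on non-targeted arrays. Of 8 macrophage genes 2 (Adgre1, Mrc1) were dim and 6 were tested, 3 higher and 3 lower, with sums of 567 to 740 against 579 to 709. In sorted bulk cells, fewer cells of a type and less RNA per cell cannot be told apart.

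The leptin receptor gene Lepr had log2 intensities of 12.02, 11.67 and 11.70 on the targeted arrays, against 12.29, 12.29 and 12.28 on the non-targeted arrays. All 3 targeted arrays lay below all 3 non-targeted ones. Targeted cells averaged 11.80 ± 0.20 and non-targeted cells 12.29 ± 0.01 (SD, n = 3 per group). The log2 difference was -0.49 (SE 0.16, 95% interval -0.85 to -0.13, unadjusted p = 0.0148). Targeted cells thus had 0.713 times the non-targeted intensity. The non-targeted SD was in the lowest 0.0978% of the 13292 genes, whereas the targeted SD stood at their 40.1 percentile. Without targeted replicate 2 the difference was -0.42 with an unadjusted p of 0.0555. The other CAR cell and stroma markers were lower as well, 10 of 10, with a median log2 difference of -0.29 against -0.01 over all genes. Their summed intensity ran from 27154 to 34371 on targeted and from 32237 to 40160 on non-targeted arrays. The part of this common difference in that of Lepr was not tested.

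RefSeq places 2 start sites of Lepr, and the windows from 250 bases before to 50 bases after each are shown because Lepr had the smallest p of the 10 genes. Capitals mark matches to the motifs searched, here an NF-kB core in the first and a CEBP motif in the second. All windows in the text are on GRCm38.p6 and read in the direction of the gene.
Lepr, chr4:101717157-101717456, plus strand: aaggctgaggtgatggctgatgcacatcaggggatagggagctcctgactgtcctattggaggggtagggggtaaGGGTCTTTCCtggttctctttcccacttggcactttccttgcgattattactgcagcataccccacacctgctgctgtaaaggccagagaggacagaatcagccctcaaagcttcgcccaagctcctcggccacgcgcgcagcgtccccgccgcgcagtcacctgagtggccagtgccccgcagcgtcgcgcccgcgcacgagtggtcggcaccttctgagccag
Lepr, chr4:101717656-101717955, plus strand: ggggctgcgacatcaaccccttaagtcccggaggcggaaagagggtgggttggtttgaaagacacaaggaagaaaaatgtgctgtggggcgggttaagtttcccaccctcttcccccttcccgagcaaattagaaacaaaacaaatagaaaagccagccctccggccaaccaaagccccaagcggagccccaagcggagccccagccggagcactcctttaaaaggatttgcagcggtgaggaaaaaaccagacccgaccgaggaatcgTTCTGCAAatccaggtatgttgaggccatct
Neither window held the STAT motif TTCNNNGAA, which 8.30% of 32851 promoter windows of that length held.

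Leprot, the gene next to Lepr on the same chromosome, encodes a protein that limits the surface level of the leptin receptor. It was named for its position after its values were seen. It read 10.01, 9.18 and 9.03 in targeted cells, against 9.62, 9.60 and 9.50 in non-targeted cells. The groups overlapped, with targeted replicate 1 the highest of the 6, and the log2 difference was -0.17 (95% interval -0.76 to 0.43). Leptin itself (Lep) was dim on these arrays.

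**Figure D1:**
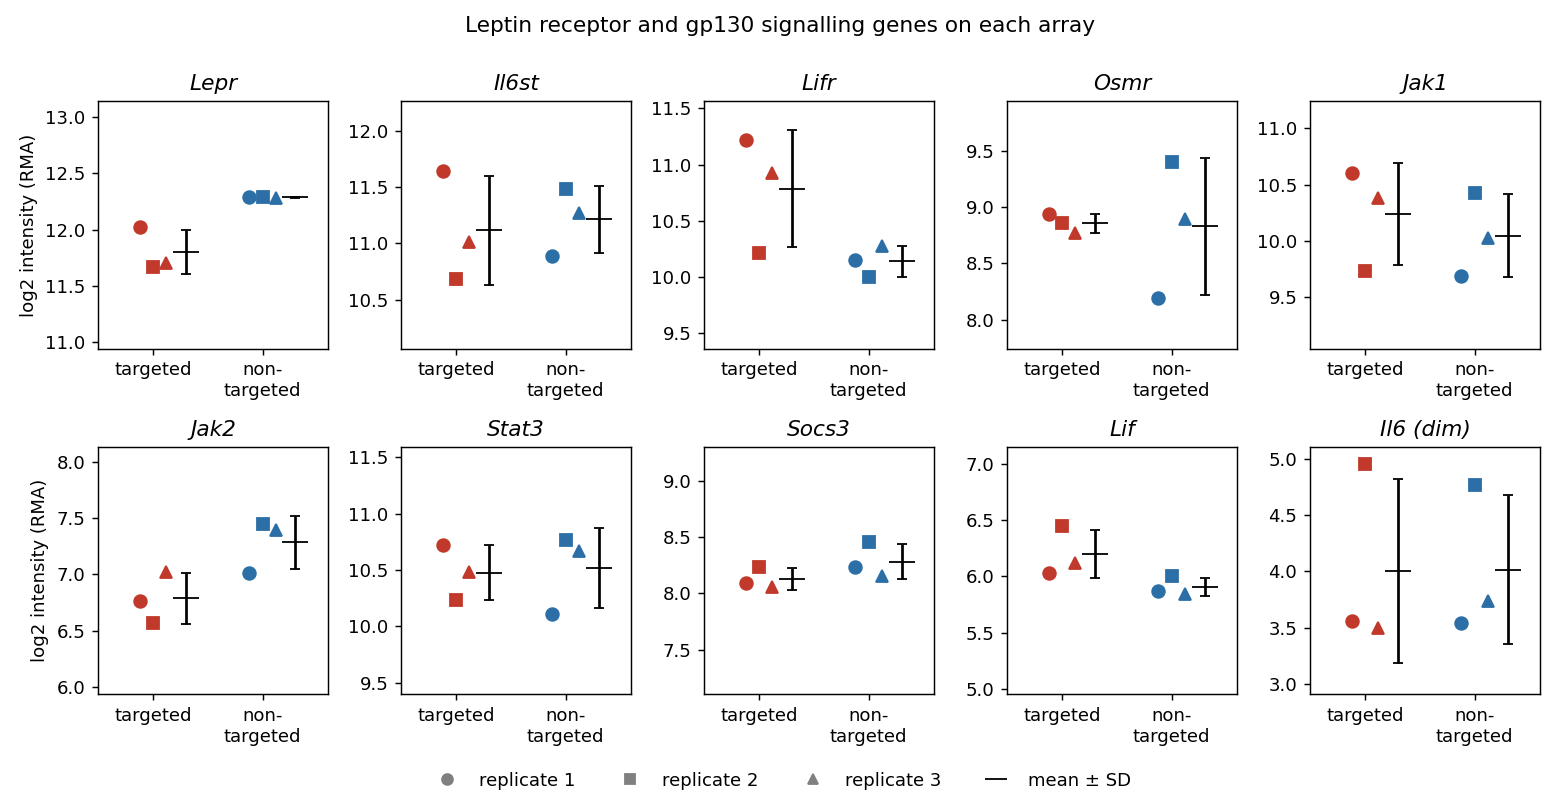
Log2 intensity (RMA) of the 10 genes on each array, targeted left of non-targeted, with marker shape for the replicate number and a bar for the mean ± SD of 3 arrays. Every panel spans 2.2 log2 units. Lepr is the gene whose non-targeted arrays coincide, at 12.28 to 12.29, and Il6 is high on replicate 2 of both groups.

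Among the receptor chains that work with gp130, Lifr was the 1 with an unadjusted p under 0.05. Lifr, the LIF receptor gene, was at 11.22, 10.21 and 10.92 on targeted arrays, against 10.15, 10.002 and 10.28 on non-targeted arrays. Targeted replicates 1 and 3 were above all non-targeted arrays, and targeted replicate 2 lay among them. The means were 10.79 ± 0.52 and 10.14 ± 0.14 (SD, n = 3 per group). The log2 difference was 0.64 (SE 0.26, 95% interval 0.04 to 1.25, unadjusted p = 0.0396), or 1.56-fold higher in targeted cells. Targeted replicate 1, which had the highest osteoblast and the lowest neutrophil sum, also had the highest Lifr. Among targeted arrays the osteoblast sum ranked as Lifr did. The neutrophil sum did not, being highest on targeted replicate 3 (11130), where Lifr was 10.92. The part of either in Lifr was not tested. Without targeted replicate 1 the difference of Lifr was 0.42 (unadjusted p = 0.120), and without targeted replicate 2 it was 0.93 (unadjusted p = 0.00199).

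The gp130 gene Il6st was at 11.65, 10.69 and 11.01 on targeted arrays, against 10.89, 11.48 and 11.27 on non-targeted arrays. Targeted arrays held both the highest and the lowest value. The log2 difference was -0.10 (95% interval -0.73 to 0.54), an interval that holds folds from 0.602 to 1.45. Osmr, the gene of the oncostatin M receptor chain, was at 8.94, 8.86 and 8.77 on targeted arrays, against 8.19, 9.40 and 8.89 on non-targeted arrays. Here the non-targeted arrays spanned the whole range, with an SD of 0.61 at the 96.0 percentile of all genes tested, and the targeted SD of 0.09 was at the 10.6 percentile. Its log2 difference was 0.03 (95% interval -0.64 to 0.70). Il6ra, the IL-6 binding chain, named after its value was seen, had a log2 difference of 0.24 (95% interval -0.22 to 0.71). Cntfr, the chain for ciliary neurotrophic factor, was at 7.16, 7.11 and 6.75 on targeted and 7.47, 8.39 and 7.13 on non-targeted arrays, with a difference of -0.66 (SE 0.32, unadjusted p = 0.0726).

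The kinase genes differed from each other in pattern. Jak2, whose kinase serves the leptin receptor, was at 6.77, 6.57 and 7.02 on targeted arrays, against 7.01, 7.45 and 7.39 on non-targeted arrays. The groups touched at 1 array each, targeted replicate 3 lying just above non-targeted replicate 1. The means were 6.79 ± 0.23 and 7.28 ± 0.24 (SD, n = 3 per group). The log2 difference was -0.50 (SE 0.19, 95% interval -0.94 to -0.05, unadjusted p = 0.0325). With the replicate number as a block the unadjusted p was 0.0564. Leaving out 1 array at a time kept it under 0.05 in 2 of 6 fits, and the difference ran from -0.63 to -0.39.

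Jak1, the kinase gene used by all gp130 receptors, was at 10.61, 9.73 and 10.38 on targeted arrays, against 9.69, 10.43 and 10.03 on non-targeted arrays. The groups overlapped over nearly their full range, with a log2 difference of 0.19 (95% interval -0.45 to 0.84). The difference was 0.0088 without targeted replicate 1 and 0.45 without targeted replicate 2. Tyk2, a further kinase gene of the family, differed by -0.08 (95% interval -0.42 to 0.25).

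Stat3, the main transcription factor gene of the pathway, was at 10.72, 10.23 and 10.48 on targeted arrays, against 10.11, 10.77 and 10.66 on non-targeted arrays. Its log2 difference was -0.04 (95% interval -0.56 to 0.48), smaller than the SD of 0.25 among targeted and 0.36 among non-targeted arrays. Il6st, Jak1 and Stat3 shared the same high and low arrays. Targeted replicate 1 and non-targeted replicate 2 had the highest values of all 3 genes, and non-targeted replicate 1 and targeted replicate 2 the lowest. Of the other STAT genes, Stat6, which serves IL-4 signalling, was at 8.12, 7.99 and 7.85 on targeted arrays, against 8.31, 8.90 and 8.33 on non-targeted arrays. Its groups did not overlap, and the difference was -0.53 (SE 0.20, 95% interval -0.99 to -0.06, unadjusted p = 0.0319).

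**Figure D2:**
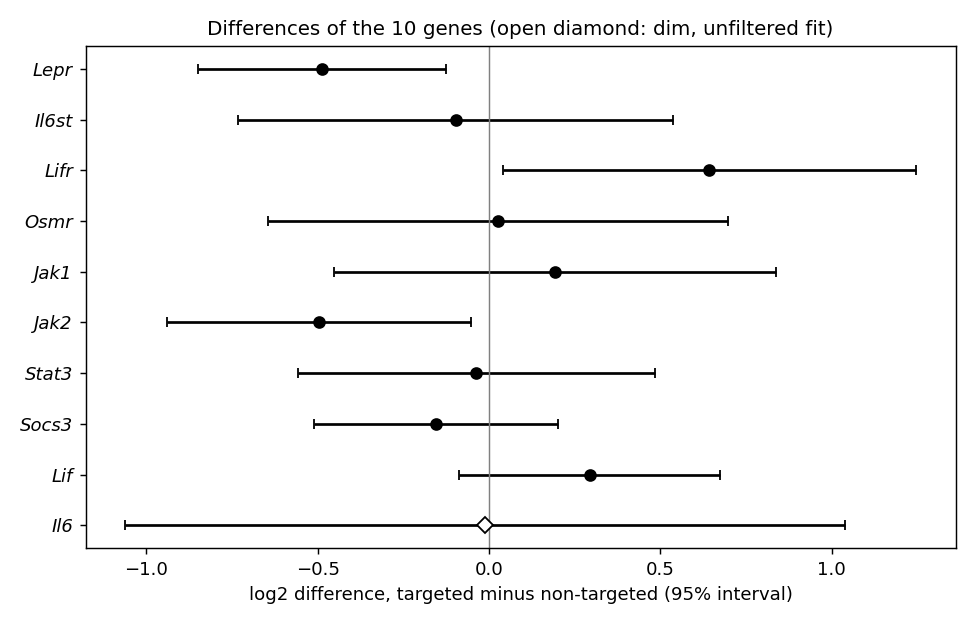
Log2 difference of each of the 10 genes, targeted minus non-targeted, with its 95% interval from the limma fit over all genes (Il6, an open diamond, from the fit without the filter on dim genes). The intervals of Lepr, Jak2 and Lifr lie to one side of 0 before adjustment, and the other 7 include 0.

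Socs3, the STAT3 target gene that encodes the feedback inhibitor of gp130 and the leptin receptor, was at 8.09, 8.24 and 8.05 on targeted arrays, against 8.23, 8.45 and 8.16 on non-targeted arrays. The groups overlapped, and the log2 difference was -0.15 (SE 0.15, 95% interval -0.51 to 0.20). A second, dimmer probe set of Socs3 read 6.96, 7.54 and 7.66 on targeted and 7.60, 7.08 and 7.23 on non-targeted arrays. It gave a difference of 0.09 (95% interval -0.44 to 0.62), of the other sign. Immediate early and dissociation genes, which sorting can induce, were lower in targeted cells for 10 of 10 genes (median -0.28), and their summed intensity was 7108 to 8228 on targeted and 7530 to 12404 on non-targeted arrays. Non-targeted replicate 2 had the highest sum and the highest Socs3, and the part of these genes in Socs3 was not tested.

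The promoter window of Socs3 is shown because it alone among the 12 windows of the 10 genes held the STAT motif TTCNNNGAA, in capitals, from 154 to 146 bases before the start. The window of Il6 is shown beside it, for a ligand gene read as dim, with matches to AP-1 (TGANTCA), CEBP (TTGCNNAA) and a pair of overlapping NF-kB cores (GGGNNNNTCC) in capitals.
Socs3, chr11:117969317-117969616, minus strand: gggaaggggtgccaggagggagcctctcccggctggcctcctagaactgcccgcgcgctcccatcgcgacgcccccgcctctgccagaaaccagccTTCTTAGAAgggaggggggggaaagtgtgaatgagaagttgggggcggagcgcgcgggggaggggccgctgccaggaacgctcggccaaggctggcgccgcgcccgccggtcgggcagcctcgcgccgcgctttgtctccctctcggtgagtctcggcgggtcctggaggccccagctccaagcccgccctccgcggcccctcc
Il6, chr5:30012864-30013163, plus strand: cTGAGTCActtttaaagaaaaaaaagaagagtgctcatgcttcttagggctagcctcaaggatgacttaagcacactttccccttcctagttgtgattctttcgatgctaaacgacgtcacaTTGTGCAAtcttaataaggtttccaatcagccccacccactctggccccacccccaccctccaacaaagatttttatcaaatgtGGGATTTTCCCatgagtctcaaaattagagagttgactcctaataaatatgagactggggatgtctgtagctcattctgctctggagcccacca
Both strands were searched. Of 32851 windows, 8.30% held TTCNNNGAA, so a match in 1 of 12 windows was near the share over all windows. The AP-1 motif was in 7.81% of the 32851, the CEBP motif in 10.8% and the NF-kB core in 19.2%. The EBF motif TCCCNNGGGA was in 0.904%, and none of the 12 windows held it. The STAT motif with a longer spacer, TTCNNNNGAA, was in 6.95% of the windows and in none of the 12. A match in these letters is a description of the sequence, not a site.

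The ligand gene Lif was at 6.03, 6.44 and 6.12 on targeted arrays, against 5.87, 6.00 and 5.84 on non-targeted arrays. All targeted arrays were above all non-targeted ones, by a small margin and close to the level at which genes were set aside as dim. The log2 difference was 0.29 (SE 0.16, 95% interval -0.09 to 0.67, unadjusted p = 0.113). The mean of Lif lay above that level on targeted arrays and below it on non-targeted arrays. Lif was thus tested only because of its targeted arrays. Lif and Lepr were the only 2 of the 9 tested genes whose groups did not overlap, and over all genes 9.07% did not overlap. Because the filter kept Lif through the group in which it was higher, its place in this count cannot be weighed against that share.

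Il6, the gene of interleukin 6, was at 3.56, 4.95 and 3.50 on targeted arrays, against 3.54, 4.77 and 3.73 on non-targeted arrays. All 6 values were below the level at which genes were set aside as dim, and replicate 2 of each group was the highest. In the fit without the filter the log2 difference was -0.01 (95% interval -1.06 to 1.04), an interval that reaches beyond 2.05-fold in either direction. Of 9 further ligand genes in the wider list, 4 were tested, 3 were dim (Osm, Il11, Lep) and 2 were not analysed here. The 4 tested ligand genes differed by -0.08 to 0.11. Among them Ctf2, a cardiotrophin gene in the mouse, differed by 0.11 (95% interval -0.31 to 0.53).

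The wider list held 67 more genes of the pathway by role, of which 59 were tested, 3 were dim and 5 were not analysed here. Of the 59, 38 were lower and 21 higher in targeted cells, with a median log2 difference of -0.10, and 0 passed over all genes (limma). Over all 13292 genes 51.1% were lower, with a median of -0.01. The list's median was -0.027 without non-targeted replicate 2 and -0.065 without targeted replicate 1. At an unadjusted p under 0.05, 1 gene was lower (Stat6) and 1 higher (Timp1), where 3.42% of all genes were lower and 1.35% higher at that mark. Groups did not overlap for 7 of the 59, 5 lower and 2 higher. Over all genes 5.76% lay wholly lower and 3.32% wholly higher.

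Of the 12 inhibitor genes of the pathway, 10 were lower in targeted cells, with a median of -0.17, where 51.1% of all genes were lower. None of the 12 had an unadjusted p under 0.05. Their mean log2 intensity was 7.16, 7.36 and 7.21 on targeted arrays, against 7.12, 7.63 and 7.34 on non-targeted arrays. Non-targeted arrays thus held both the lowest mean (replicate 1) and the highest (replicate 2). Socs4, a relative of Socs3, was at 6.51, 6.45 and 6.58 on targeted arrays, against 6.76, 6.63 and 7.12 on non-targeted arrays, with a difference of -0.33 (SE 0.17, unadjusted p = 0.0972). Its groups did not overlap. Of 11 adaptor genes 6 lay lower and 5 higher (median -0.10). Stam2, an endosomal sorting adaptor that binds JAK kinases, differed by -0.47 (95% interval -1.06 to 0.12).

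Known STAT3 target genes did not move one way. Of 22 tested, 12 lay lower in targeted cells and 10 higher (median -0.15, range -0.46 to 1.01). Timp1, an inhibitor of matrix metalloproteinases, was at 8.63, 7.87 and 7.18 on targeted arrays, against 6.45, 7.03 and 7.16 on non-targeted arrays. Its groups did not overlap and the difference was 1.01 (SE 0.36, 95% interval 0.17 to 1.86, unadjusted p = 0.0248), with the highest value on targeted replicate 1. Ccnd1, a cyclin gene, was at 8.18, 7.46 and 6.97 on targeted arrays, against 6.96, 6.94 and 6.78 on non-targeted arrays (difference 0.64, SE 0.29, unadjusted p = 0.0590). It too was highest on targeted replicate 1. Mcl1, a survival gene of the BCL2 family, was at 7.71, 7.57 and 7.62 against 7.93, 7.98 and 7.82 in non-targeted cells, a difference of -0.28 (SE 0.14, unadjusted p = 0.0820). Junb, an AP-1 gene that is also among the immediate early genes, differed by -0.28 (95% interval -0.65 to 0.09).

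**Figure D3:**
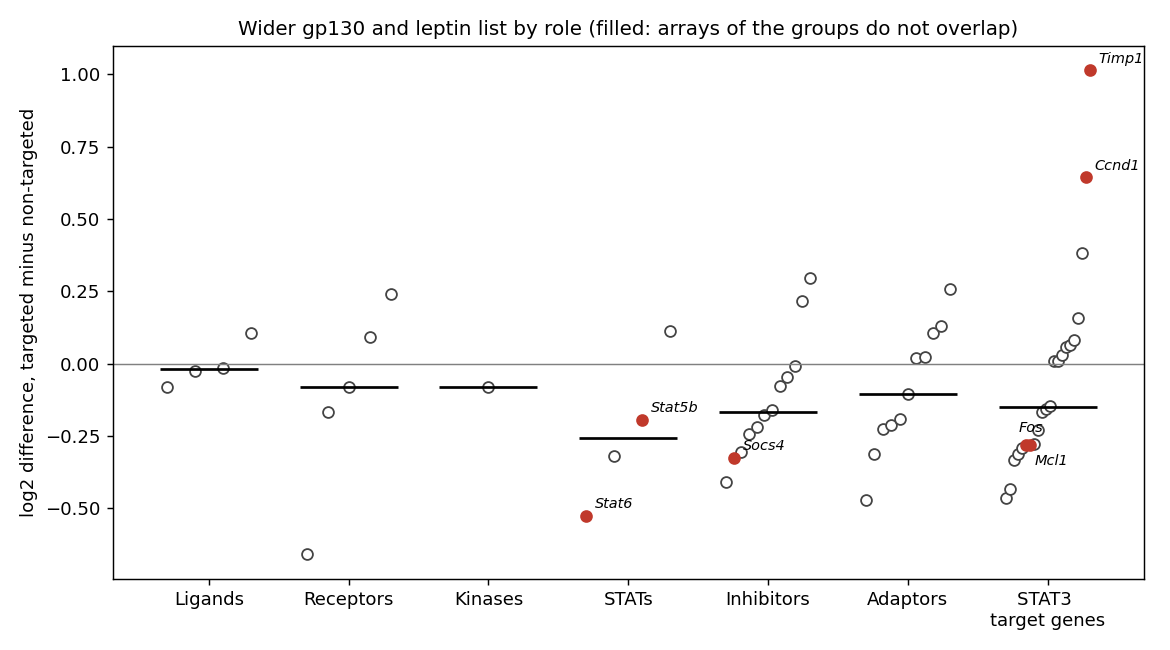
Log2 difference, targeted minus non-targeted, of the 59 tested genes of the wider list by role, each point a gene and each bar the median of its role. Filled points are the 7 genes whose targeted and non-targeted arrays did not overlap, from Stat6 at -0.53 to Timp1 at 1.01.

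Because Il6st, Jak1, Stat3 and others shared high and low arrays, the log2 ratio of each pair of tested genes was also taken within each array. This comparison was chosen after the values of the single genes had been seen and carries no test. Ratios are given minus their mean over the 6 arrays, since levels of different probe sets are not comparable. Of the 36 pairs of the 9 genes, 11 (30.6%) had non-overlapping groups, where 9.97% of all pairs of genes tested did. The 36 pairs share 9 genes and are not independent. Of the 11, all but Il6st over Jak1 and Socs3 over Lif held Lepr, Lifr or Jak2. Those genes had already been singled out by their own differences, so the share is not a separate result. Lifr and Jak2 each took part in 4 of the 11, Lepr, Jak1 and Lif in 3, and Osmr in 0.

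The ratio of Lepr over Lifr was at -0.78, -0.12 and -0.80 on targeted arrays, against 0.56, 0.71 and 0.42 on non-targeted arrays, a difference of -1.13. Of the 11 pairs Lifr over Jak2 had the largest difference, 1.14, with 1.03, 0.22 and 0.47 on targeted arrays and -0.29, -0.88 and -0.54 on non-targeted arrays. The ratio of gp130 to its partner chain, Il6st over Lifr, was at -0.28, -0.23 and -0.61 on targeted arrays, against 0.04, 0.78 and 0.29 on non-targeted arrays (difference -0.74). Il6st over Lifr was thus lower on every targeted array than on any non-targeted array, although Il6st alone and Lifr alone overlapped between the groups. The kinase ratio Jak1 over Jak2 was at 0.73, 0.05 and 0.25 on targeted arrays, against -0.43, -0.13 and -0.47 on non-targeted arrays (difference 0.69). Jak2 over Stat3 was at -0.50, -0.20 and 0.01 on targeted arrays, against 0.37, 0.14 and 0.19 on non-targeted arrays. Set against Jak1 or Stat3 of the same array, Jak2 thus separated the groups. It did so in 4 of its 8 pairs, and the groups overlapped against Il6st, Lepr, Osmr and Socs3. Socs3 over Lif was at -0.10, -0.36 and -0.22 on targeted arrays, against 0.21, 0.30 and 0.16 on non-targeted arrays. Lif, as given above, passed the filter on dim genes only through its targeted arrays, which bears on all 3 of its pairs among the 11.

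**Figure D4:**
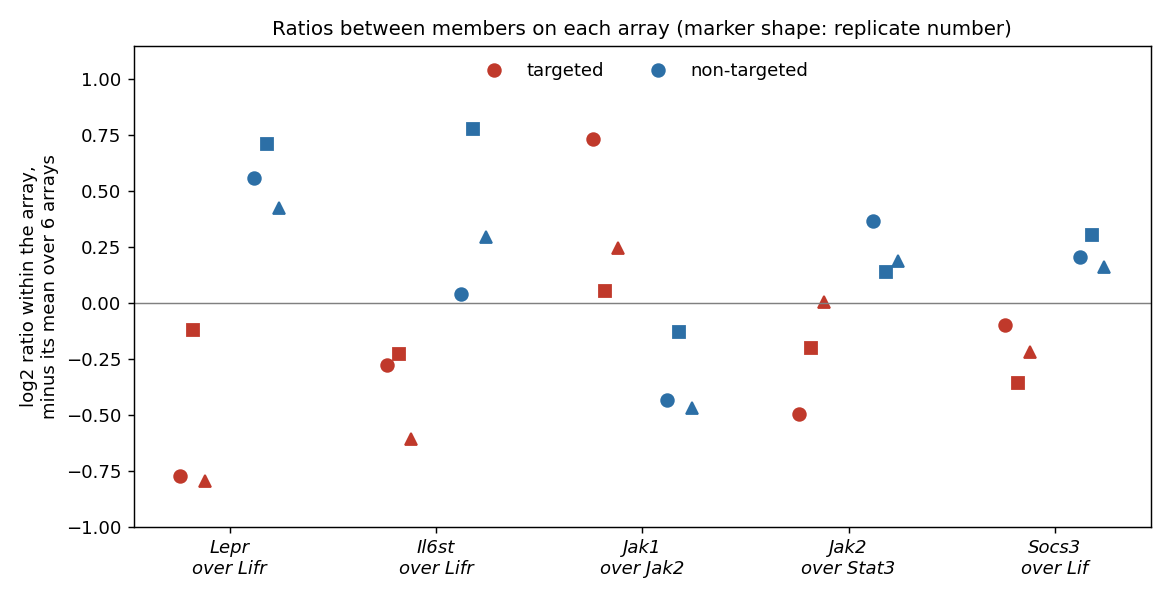
Log2 ratio of 5 pairs of the genes within each array, minus the pair's mean over 6 arrays, targeted left of non-targeted, with marker shape for the replicate number. In each of these pairs, picked from the 11 that did not overlap, all targeted arrays lie on one side of all non-targeted arrays, and Lepr over Lifr differs by -1.13.

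Genes with patterns most like those of 3 members were sought by the root mean square difference over 6 arrays. Log2 values were first centred on each gene's own mean. The search covered the 13292 genes tested other than predicted models, clone-named genes and small RNAs. For Lepr, whose own values had a root mean square of 0.27 about their mean, the nearest were Fbln1 (0.04), a matrix glycoprotein gene, Tlr4 (0.04), the endotoxin receptor gene, Atf7 (0.05), Ccng2 (0.06) and Marchf7 (0.07). Their log2 differences ran from -0.52 for Tlr4 to -0.37 for Ccng2, near that of Lepr because the search matched its values on all 6 arrays. For Il6st, with a root mean square of 0.33, the nearest were Hspa4 (0.02), a chaperone gene, Syap1 (0.05), Crebbp (0.06), the gene of a histone acetyltransferase, Hsp90aa1 (0.06), another chaperone gene, and Cpeb4 (0.07). These 5 shared its high values on targeted replicate 1 and non-targeted replicate 2, which also follows from the search. How near unrelated genes come over 6 arrays was not tested. For Il6, with a root mean square of 0.61, the nearest were H2-M3 (0.19), Timp4 (0.21), Dhrs11 (0.23), Pcnp (0.23) and Ddb2 (0.24), a looser likeness.

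**Figure D5:**
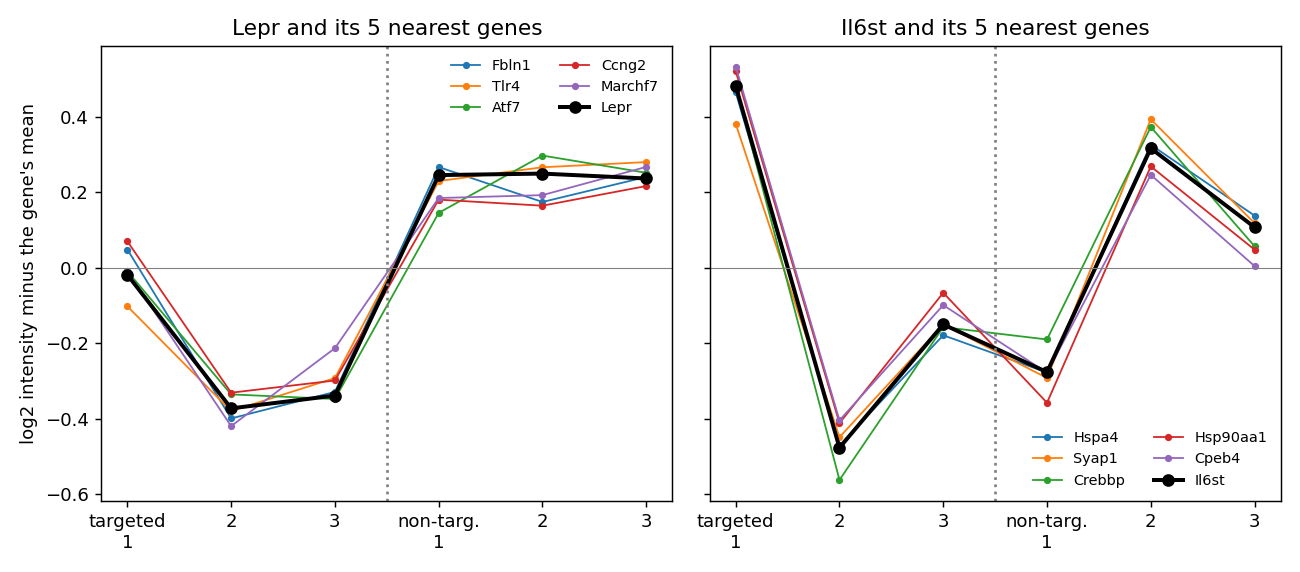
Log2 intensity minus the gene's own mean on the 3 targeted and the 3 non-targeted arrays, for Lepr (left, black) and Il6st (right, black) with the 5 genes nearest to each. Lines join the values of a gene and carry no order of arrays. Lepr itself is flat over the non-targeted arrays, and the Il6st set has its highest values on targeted replicate 1 and non-targeted replicate 2 and its lowest on targeted replicate 2.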

How the data were processed

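The authors deposited linear intensity values of probe sets. Per the submitters' processing notes they used Affymetrix Expression Console 1.4 and RMA, and per the labels the cDNA was prepared from very small amounts of RNA. The build was not given in the sources used here. The log2 of each of the 35556 values per array was taken. Probe sets were named by the platform's annotation (21789 with 1 gene, 1621 with several, 12146 not listed), with symbols updated through RefSeq (GRCm38.p6, 21698 matched). The brightest probe set per gene was kept, and the dimmest 33.3% of genes were left out. No detection calls were used, and 6 arrays limit the precision.

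The comparison used limma 3.58.1 under R 4.3.3 (lmFit, eBayes, two-sided, no covariate, Benjamini-Hochberg over 13292 genes). The procedure was run on simulated data with independent noise and planted differences larger than those of the members. That run therefore does not cover differences of the members' size or patterns shared between arrays. Each SD is over 3 arrays. Alternatives were 3 scalings, 2 filters, 3 variance or weight models, the mean of probe sets, 2 replicate blocks and leaving out each array. The rule for named genes took the 10 members, marker-list genes beside results, wider-list genes with an unadjusted p under 0.05, up to 8 more by smallest p covering each role, the 5 nearest patterns of Lepr, Il6st and Il6, and Dmp1. Il6ra, Leprot and the dim ligand genes fall outside it and were named after their values were seen. The members and lists were chosen with earlier results of these data known. Promoter windows are from RefSeq, and 10 of the 10 genes matched. Figures were drawn with matplotlib 3.10.9.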

Additional observations from a re-analysis of the deposited data

How the results depend on the processing

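The count of genes past the threshold was 0 in 15 of 17 alternatives, leave-one-out fits included, and 1 with array weights and with the replicate number as a fixed replicate block. Of the 9 tested genes, 5 were lower in targeted cells, from 3 to 6 when 1 array was left out, the count of 3 arising without either replicate 2 array. The median of the wider list stayed below 0 in all 17, from -0.14 to -0.03 when 1 array was left out, and the median spread of the members between arrays ran from 0.21 to 0.35 there, against 0.31. No member passed the adjusted threshold in any alternative. Lepr kept its direction in 17 of 17, from -0.60 to -0.42, with an unadjusted p under 0.05 in 16. Jak2 did so in 17 with 11 under 0.05, and Lifr in 17 with 9. The difference of Lifr was 0.37 with array weights (limma, unadjusted p = 0.113), and its unadjusted limma p was 0.0592 with median scaling.

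Directions turned for Osmr, Il6st, Stat3 and Socs3. Osmr was -0.042 with array weights. When 1 array was left out, Osmr ran from -0.29 (no non-targeted replicate 1) to 0.31, Jak1 from 0.0088 to 0.45, Il6st from -0.36 to 0.12 (no targeted replicate 2) and Stat3 from -0.24 to 0.091 (no non-targeted replicate 2). The dimmer Socs3 probe set, chosen after seeing the data, gave 0.087. The cause was not tested.

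Samples of the same replicate number deviated from their group means with correlations of -0.26, -0.12 and 0.07 across genes. Pairs of unlike number ran from -0.26 to 0.32, the latter for targeted replicate 1 with non-targeted replicate 2. The labels do not tie a number to a mouse, so the number was not taken as a pairing. Both populations came from 3 mice, yet the main fit treated the arrays as independent, and an effect of the mouse was not tested. The random replicate block gave 0 calls.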
